A study of Drosophila melanogaster with 14 samples.

Results

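The genes described here are 8 genes of the presynaptic terminal and of neuronal excitability in Drosophila melanogaster: nSyb, Syn, Rab3, brp, unc-13, cac, para and unc-104. They were chosen by symbol, as every array probe set whose only annotated gene was exactly one of these 8, which gave 11 probe sets of 8 genes among the 10844 genes that the array names in this way. brp had 3 probe sets, cac had 2 and each of the other genes had 1. RNA was measured on 14 single-colour Affymetrix arrays in 3 groups. The first group, IP, held 4 arrays of RNA eluted from anti-FLAG beads after incubation with head extract of flies that carried Rh1-GAL4 and a UAS transgene for FLAG-tagged poly(A)-binding protein (PABP). About 200 heads per sample had first been held for 30 min in 1% formaldehyde, homogenized and sonicated, and the labels name the source photoreceptor cells R1-R6. The second group, Rh1 heads, held 4 arrays of whole heads of flies with the same driver and transgene, about 100 heads per sample, extracted with no fixation given. The third group, CS heads, held 6 arrays of about 100 whole heads each of Canton-S, a wild-type strain without the driver or the transgene. Rh1-GAL4 drives expression in the outer photoreceptors R1-R6, and PABP coats the poly(A) tails of messenger RNA. The beads are thus meant to recover RNA bound in the cells that make the tagged protein. The 14 arrays include no immunoprecipitate from flies without the tagged protein, so RNA carried over from other cells was not measured. The labels write the transgene both as UAS-dPABP-FLAG and as UAS-hPABP-FLAG, which was not settled here, and give no age or sex.

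Neurons release transmitter when an action potential, carried along the axon by voltage-gated sodium channels, opens calcium channels at the active zone, the release site of the terminal. Calcium then lets docked synaptic vesicles fuse through SNARE proteins, of which one sits on the vesicle and others on the plasma membrane. A scaffold of large proteins holds channels and vesicles together, and kinesin motors bring the vesicle material from the cell body. Fly photoreceptors release histamine at such active zones, and they respond to light with graded voltage changes rather than trains of action potentials. All other neurons of the head use the same release machinery, so the 8 genes are not markers of one neuron type.

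Several measures of the arrays touch every result. IP arrays correlated with each other at 0.847 to 0.976 across probe sets, against 0.985 to 0.994 among Rh1 heads and 0.98 to 0.994 among CS heads. The median SD on the log2 scale was 0.222 in IP, 0.0978 in Rh1 heads and 0.0962 in CS heads. The ratio of 5′ to 3′ control probe sets of the eIF-4a transcript was 0.531, 0.0284, 0.209 and 0.0432 in IP replicates 1 to 4, against 0.604 to 0.678 in Rh1 heads and 0.444 to 0.593 in CS heads. All IP ratios were below those of Rh1 heads, by most in replicates 2 and 4, and replicate 1 was within the range of CS heads. For the GAPDH and ACTIN controls every IP array was below every head array, at 0.0093 to 0.202 for GAPDH in IP against 0.405 to 0.468 in Rh1 heads and 0.291 to 0.541 in CS heads. Marker genes were read on the brightest probe set of each. Of 9 tested photoreceptor markers 8 were higher in IP than in Rh1 heads and 0 lower by limma, also at an unadjusted p under 0.05. On another probe set, though, the marker eys was lower (log2 fold -0.64, limma adjusted p = 0.0247). The markers of 3 other sources moved down: 6 of 7 for muscle, 6 of 7 for fat body and 8 of 9 for transmitter neurons other than photoreceptors. Glial markers were mixed, with 5 of 10 lower, 2 higher and 3 not passing. Summed signal of the photoreceptor markers was 20261 to 36151 in IP, 5611 to 6211 in Rh1 heads and 21581 to 24637 in CS heads, so whole heads with the transgene had less of it than wild-type heads. Fixation, sonication and bead recovery separate IP from both kinds of whole heads, and what these steps do and what the tagged protein binds cannot be told apart. The labels do not say whether replicates were separate collections of flies, so p-values reflect just the spread between these samples, and precision is limited by the few arrays. One spread was estimated for both groups of a comparison, and with the wider spread of IP and its fewer arrays the p-values of IP against CS heads tend to be too small.

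Compared with Rh1 heads, the immunoprecipitate had less RNA of most of these genes. Of the 8 probe sets that passed a filter on low signal, those of Syn, Rab3, unc-13, cac and unc-104 fell in IP, 1 of brp rose, and nSyb with another of brp did not pass. A probe set was called at an adjusted p under 0.05 in limma, with Benjamini-Hochberg adjustment over all 9776 probe sets that passed the filter. Lower calls were 25.6% and higher calls 21.8% of those 9776, against 5 and 1 of the 8, and without IP replicates 2 and 4 the counts were again 5 and 1. All IP arrays lay on one side of all Rh1 head arrays for 6 of the 8 member probe sets and for 46.6% of all tested. The median log2 fold of IP over Rh1 heads was -1.06 over the 8, against 0.01 over all tested probe sets. Fold changes are differences of log2(signal + 32) and understate the change of low signals. In bulk RNA, fewer cells that express a gene and less RNA per cell cannot be told apart.

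Whole heads of the transgenic flies, in turn, gave more signal than Canton-S heads for most of the same genes. Driver, transgene and any difference of strain separate these groups together, and their array titles also carry different prefixes. The parts of these in the head differences cannot be told apart. Syn, Rab3, unc-13, cac, unc-104 and brp on 1 probe set rose in Rh1 heads, brp on another probe set fell, and nSyb did not pass. Higher calls were 24.4% and lower calls 29.7% of the 9776, against 6 and 1 of the 8. The arrays did not overlap for 7 of the 8 and for 38.8% of all tested, and the median log2 fold was 0.41 over the 8 and -0.02 over all tested. IP and CS heads differ in driver, transgene, any difference of strain and title prefix, and in fixation, sonication and bead recovery as well. These cannot be told apart. Between IP and CS heads 6 of the 8 were lower and 0 higher by limma, where 1 was higher at an unadjusted p under 0.05, brp on probe set 146887_at (adjusted p = 0.0657). Over all 9776, 34.4% were lower and 26.5% higher in this comparison, and 48.7% did not overlap, against 3 of the 8. The median was -0.72 over the 8 and -0.05 over all tested. The 3 comparisons share arrays, since each group enters 2 of them, and their values are given side by side below.

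**Figure D1:**
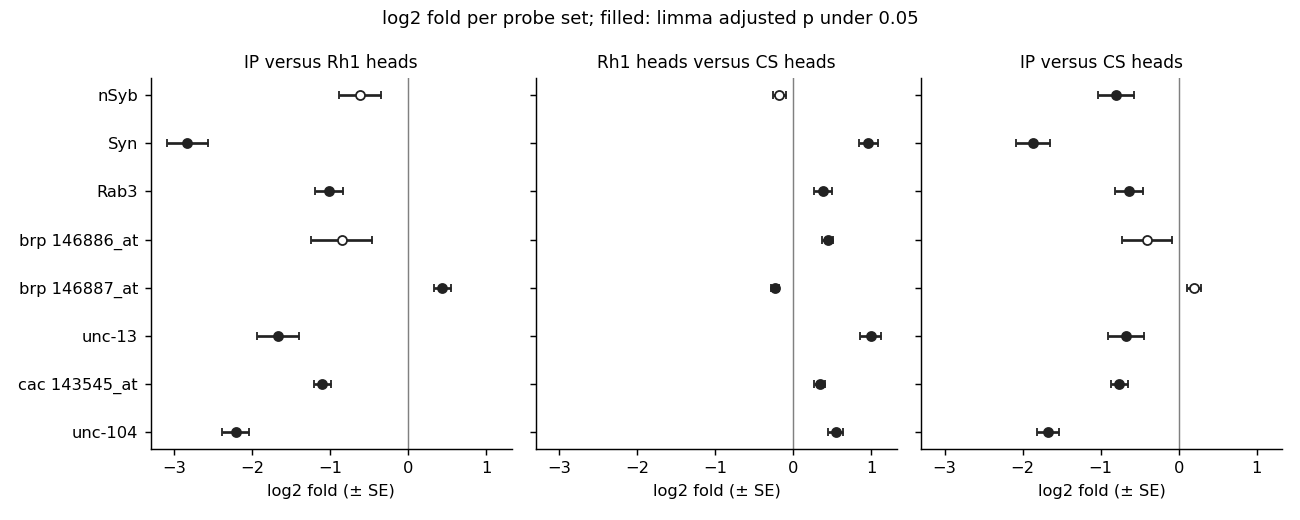
Log2 fold change with its standard error (horizontal axis) of the 8 tested probe sets (vertical axis), 1 panel per comparison, as differences of log2(signal + 32). Filled points had an adjusted p under 0.05 in limma. In IP versus Rh1 heads Syn (-2.83) and unc-104 (-2.21) lie farthest left and brp on probe set 146887_at (0.44) lies right of 0.

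Of the vesicle proteins, nSyb encodes neuronal synaptobrevin, the SNARE protein of the synaptic vesicle without which evoked release fails. Its signal was 1662, 730.5, 1073 and 599.9 in IP and 1577, 1386, 1422 and 1499 in Rh1 heads. In CS heads it had a lowest value of 1408, a median of 1684 and a highest of 1897. One IP array, replicate 1, was above every Rh1 head array, and the other IP arrays were below all of them, so the groups overlapped. The log2 fold of IP over Rh1 heads was -0.62 (SE 0.27, adjusted p = 0.084), and that of Rh1 heads over CS heads was -0.18 (SE 0.08, adjusted p = 0.0932). Without IP replicate 1 the fold was -0.89 (adjusted p = 0.00333), so the call depended on that array. Against CS heads nSyb passed, at -0.80 (SE 0.23, adjusted p = 0.0102), though the arrays overlapped, and without IP replicates 2 and 4 it did not (-0.31, adjusted p = 0.105). The IP arrays with the lowest nSyb signals, replicates 2 and 4, are also those with the lowest 5′ to 3′ ratios, and the part of RNA quality in this was not tested.

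Syn encodes synapsin, a phosphoprotein that coats vesicles and holds their reserve pool. It had 80.1, 17.82, 67.14 and 83.21 in IP against 498.2, 580.1, 625.2 and 737.2 in Rh1 heads. Its CS head values had a lowest of 231.7, a median of 297 and a highest of 379.5. The 3 groups did not overlap, with Rh1 heads highest, CS heads between and IP lowest. Syn fell most of all the member probe sets in IP versus Rh1 heads, with a log2 fold of -2.83 (SE 0.26, adjusted p = 1.84e-05). All 4 of its IP signals were below 110, the signal at which the filter on the mean over all arrays was set, so the size of this fold depends on the pseudocount and ran from -3.11 to -2.44 over the alternatives tried. In Rh1 heads over CS heads Syn rose by 0.96 on the log2 scale (SE 0.12, adjusted p = 1.45e-05), and in IP over CS heads it fell by 1.87 (SE 0.22, adjusted p = 1.6e-05).

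Rab3 encodes the small GTPase of synaptic vesicles, which in flies also shapes how release-site proteins are shared out among active zones. The IP arrays gave 141.2, 181, 171.1 and 298.7, and the Rh1 head arrays gave 446.2, 380.2, 416.2 and 445.8. CS heads had a lowest value of 222.2, a median of 339.2 and a highest of 366.7. Each IP array was below each Rh1 head array, but the highest IP array was above the lowest CS head array. The log2 fold was -1.02 in IP over Rh1 heads (SE 0.18, adjusted p = 0.00127) and 0.38 in Rh1 heads over CS heads (SE 0.11, adjusted p = 0.0098). It was -0.64 in IP over CS heads (SE 0.18, adjusted p = 0.00799). With the spread estimated from all 14 arrays Rab3 did not pass in Rh1 heads versus CS heads (adjusted p = 0.0842).

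**Figure D2:**
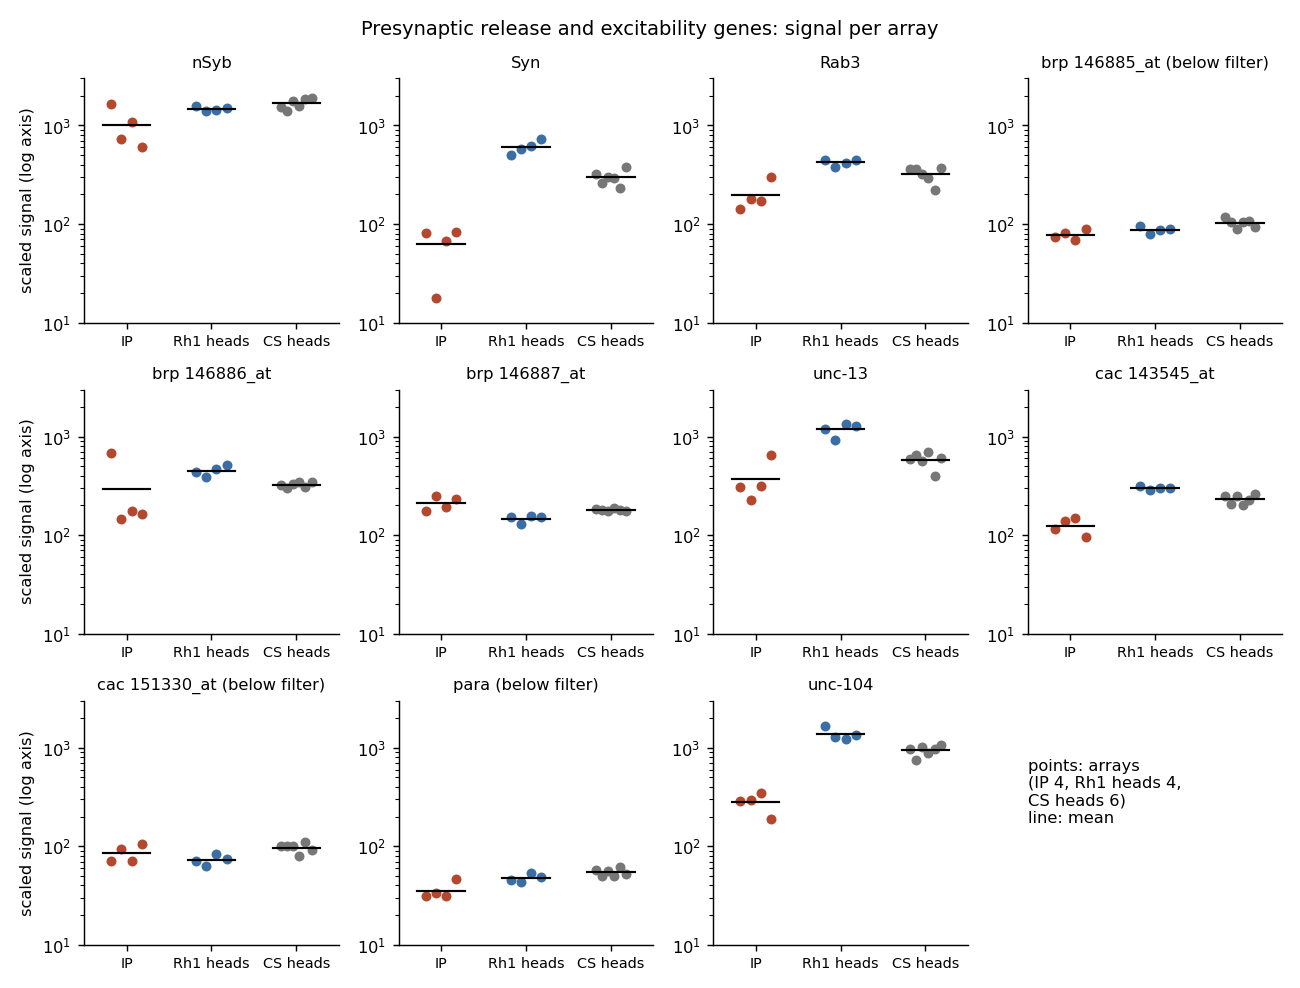
Scaled signal of each array on a log axis, 1 panel for each of the 11 probe sets, with IP, Rh1 heads and CS heads left to right and a line at each group mean. For Syn and unc-104 all IP points lie below all head points, whereas for nSyb IP replicate 1 (1662) lies among the head arrays and IP replicate 4 (599.9) far below them.

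At the active zone, brp encodes Bruchpilot, the large coiled-coil protein that builds the T-shaped dense projection of fly synapses, and its 3 probe sets did not move together. Probe set 146886_at had 680.1, 144.4, 177.7 and 163.6 in IP and 439.2, 389, 471.7 and 510.9 in Rh1 heads. CS heads ranged from a lowest of 301.3 over a median of 325.1 to a highest of 345.4. Replicate 1 of IP was above every head array, and the other 3 IP arrays were below every head array. The log2 fold of IP over Rh1 heads was -0.85 (SE 0.39, adjusted p = 0.103), and without IP replicate 1 it was -1.32 (adjusted p = 2.59e-05). In Rh1 heads over CS heads this probe set rose by 0.44 (SE 0.07, adjusted p = 0.000145), but not with the spread of all 14 arrays (adjusted p = 0.261), and in IP over CS heads it had -0.41 (SE 0.32, adjusted p = 0.285). Probe set 146887_at ran the other way in both comparisons with Rh1 heads. It had 174.2, 248.4, 194.2 and 233.4 in IP against 153.9, 129.1, 155.2 and 151.3 in Rh1 heads. Its CS head signals were tight, with a lowest of 174.6, a median of 178.3 and a highest of 188. The Rh1 head arrays were the lowest of the 3 groups and overlapped neither of the others. On this probe set brp rose in IP over Rh1 heads (log2 fold 0.44, SE 0.11, adjusted p = 0.0101) and fell by 0.24 in Rh1 heads over CS heads (SE 0.05, adjusted p = 0.00152). In IP over CS heads its log2 fold was 0.20 (SE 0.09, adjusted p = 0.0657).

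The third probe set of brp, 146885_at, was below the filter, with means of 78.22 ± 9.2 in IP (SD, n = 4), 87.67 ± 7.47 in Rh1 heads (SD, n = 4) and 103 ± 10.5 in CS heads (SD, n = 6). Where no filter was used, its log2 fold was -0.12 in IP over Rh1 heads (adjusted p = 0.291), -0.17 in Rh1 heads over CS heads (adjusted p = 0.0384) and -0.29 in IP over CS heads (adjusted p = 0.00822). The disagreement between the tested pair of brp probe sets was itself tested on the per-array difference, 146886_at minus 146887_at, in log2 units. This difference was 1.43 ± 0.10 in Rh1 heads (SD, n = 4) and 0.75 ± 0.08 in CS heads (SD, n = 6), and the exact two-sided permutation test gave p = 0.00476, the smallest that 210 arrangements allow. In IP it was 0.14 ± 1.12 (SD, n = 4), a spread wider than the difference, and the exact permutation test against Rh1 heads gave p = 0.143, where 70 arrangements allow 0.0286 at the least. The direction of brp in the head comparison therefore depended on which probe set was read, and RefSeq lists several transcripts for the gene. Which of them each probe set reads is not given in the sources used here.

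unc-13 encodes the priming factor that makes docked vesicles ready to fuse. It had 308, 228, 314.9 and 645 in IP, against 1188, 922, 1355 and 1289 in Rh1 heads. CS heads had a lowest signal of 399, a median of 599.6 and a highest of 705.1. Rh1 heads were above every array of both other groups, whereas IP replicate 4 lay within the range of CS heads. The log2 fold was -1.67 in IP over Rh1 heads (SE 0.27, adjusted p = 0.000694) and 0.99 in Rh1 heads over CS heads (SE 0.13, adjusted p = 3.83e-05), the highest of the members in that comparison. Against CS heads IP had -0.68 (SE 0.23, adjusted p = 0.0238), a call that was lost without IP replicate 1, 2 or 3 (adjusted p = 0.0529, 0.0845 and 0.0611).

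cac, for cacophony, encodes the pore-forming subunit of the calcium channel that triggers release at fly synapses. Its brighter probe set, 143545_at, had 115.1, 139.1, 149.1 and 95.99 in IP and 317.4, 287.6, 303.9 and 299.9 in Rh1 heads. In CS heads the lowest was 201.1, the median 237.5 and the highest 264. No array of one group reached into another, in the order Rh1 heads, CS heads, IP from high to low. The log2 fold was -1.10 in IP over Rh1 heads (SE 0.11, adjusted p = 4.44e-05), 0.34 in Rh1 heads over CS heads (SE 0.07, adjusted p = 0.000896) and -0.76 in IP over CS heads (SE 0.11, adjusted p = 7.87e-05). The other probe set, 151330_at, was below the filter, at 84.78 ± 17.1 in IP (SD, n = 4), 73.18 ± 8.6 in Rh1 heads (SD, n = 4) and 96.83 ± 10.3 in CS heads (SD, n = 6). Without a filter its log2 fold was 0.14 in IP over Rh1 heads (adjusted p = 0.342) and -0.29 in Rh1 heads over CS heads (adjusted p = 0.00313). The per-array difference of the cac probe sets, 143545_at minus 151330_at, was 1.67 ± 0.10 in Rh1 heads (SD, n = 4) and 1.04 ± 0.15 in CS heads (SD, n = 6) (exact permutation test, p = 0.00635 adjusted over 4 pairs). In IP it was 0.42 ± 0.38 (SD, n = 4). Against Rh1 heads the exact permutation test gave p = 0.0286, the smallest that 70 arrangements allow, or 0.0572 adjusted over the 4 pairs. At that limit this pair alone could not have passed after adjustment. A signal this close to the lower end of the array says little about the transcript.

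para encodes the main voltage-gated sodium channel of fly neurons, and its 1 probe set was dim everywhere and below the filter. It had 30.93, 33.4, 31.42 and 46.44 in IP and 45.72, 43.1, 53.68 and 49.1 in Rh1 heads. CS heads had a lowest signal of 49.94, a median of 54.38 and a highest of 62.03. IP replicates 1, 2 and 3 were below every head array, and IP replicate 4 lay among Rh1 heads. Where no filter was used the log2 fold was -0.25 in IP over Rh1 heads (SE 0.09, adjusted p = 0.0465), -0.12 in Rh1 heads over CS heads (adjusted p = 0.0901) and -0.37 in IP over CS heads (adjusted p = 0.0014). At such signals the pseudocount of 32 holds any fold close to 0.

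unc-104 encodes the kinesin motor that carries synaptic vesicle precursors and active zone material down the axon. Its signal was 290, 294, 343.7 and 187.7 in IP, against 1669, 1293, 1229 and 1350 in Rh1 heads. The CS head arrays had a lowest of 755.6, a median of 967.2 and a highest of 1064. The groups were fully apart, with Rh1 heads highest and IP lowest. unc-104 fell in IP over Rh1 heads by 2.21 on the log2 scale (SE 0.17, adjusted p = 7.46e-06) and in IP over CS heads by 1.67 (SE 0.14, adjusted p = 1.33e-06). It rose in Rh1 heads over CS heads by 0.54 (SE 0.10, adjusted p = 0.000443).

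Across the 4 IP arrays the genes did not deviate in one pattern. The difference of each IP array from the mean of Rh1 heads had a median over the 8 tested probe sets of -1.28, -1.27, -1.18 and -1.27 in replicates 1 to 4. The genes that made up this median differed from array to array. In replicate 1, which had the highest eIF-4a ratio, nSyb (0.17) and brp on 146886_at (0.56) stood above Rh1 heads while Syn (-2.51), unc-104 (-2.13) and unc-13 (-1.83) stood far below. In replicate 2, with the lowest ratio, nSyb was at -0.98, brp on 146886_at at -1.45 and Syn at -3.68. Replicate 4 had the least reduced Rab3 (-0.45) and unc-13 (-0.84) but the most reduced unc-104 (-2.68) and nSyb (-1.25). For Syn, unc-104, unc-13, Rab3 and cac on 143545_at the log2 fold was negative in all 4 arrays, replicate 1 included. Left without replicates 2 and 4, Syn had -2.59 and unc-13 -1.81, close to their values with all arrays, whereas nSyb had -0.13 and brp on 146886_at -0.32.

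**Figure D3:**
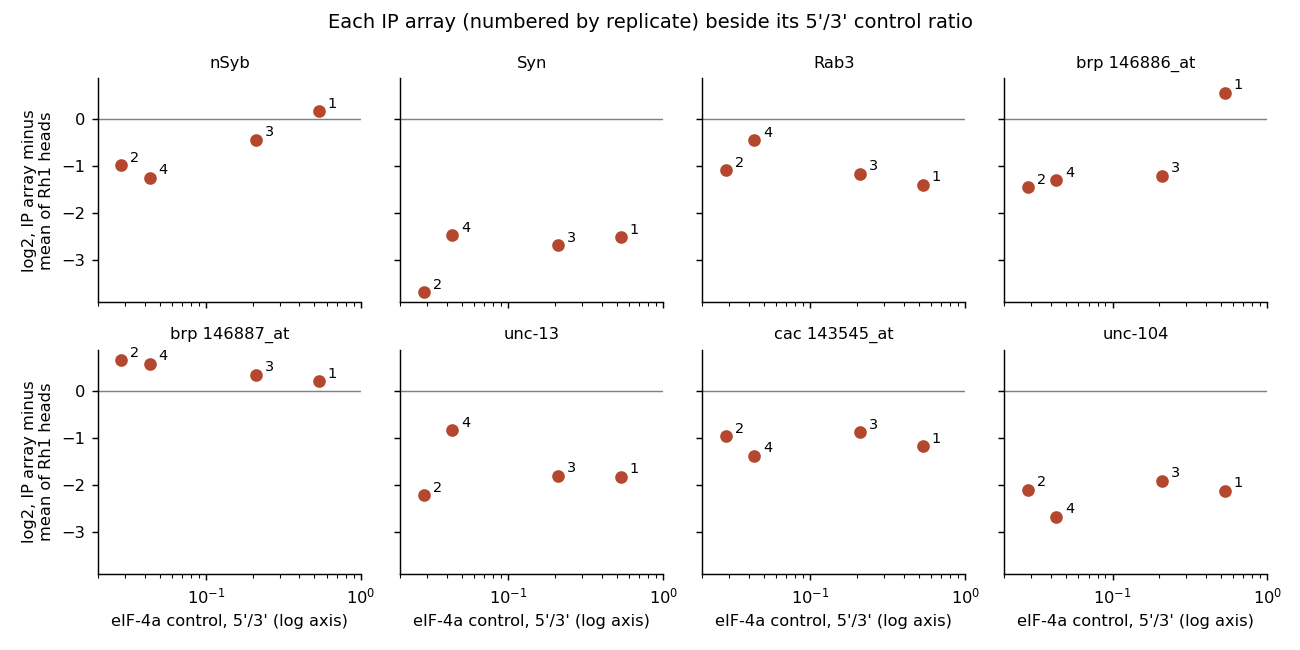
Log2 value of each IP array minus the mean of Rh1 heads (vertical axis, 1 panel for each of the 8 tested probe sets) against the 5′ to 3′ ratio of the eIF-4a control on that array (horizontal axis, log scale). nSyb and brp on 146886_at are above 0 on the array with the ratio of 0.531 and below 0 on the others, while Syn, unc-104, unc-13, Rab3 and cac are below 0 on all 4.

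The order of the group means was the same for 6 of the 11 probe sets: Rh1 heads above CS heads above IP for Syn, Rab3, brp on 146886_at, unc-13, cac on 143545_at and unc-104. For brp on 146886_at the last step was not beyond the spread. nSyb, para and brp on 146885_at instead had CS heads highest and IP lowest, and for nSyb neither neighbouring step in that order passed. As a description over the 14 arrays, which share their group, handling and scaling, Pearson's r between the tested probe sets ran from 0.27, for nSyb with Rab3 and with unc-13, to 0.98 for cac with unc-104, leaving aside brp on 146887_at. That probe set had negative values with all the others, from -0.85 with Syn to -0.55 with Rab3, and -0.78 with brp on 146886_at. Outside the members, the most alike to Syn were milt (r = 0.992) and chk (0.986), and to unc-104 CG32486 (0.99) and CG42613 (0.987). The closest to cac other than unc-104 was Zasp52 (0.977), to nSyb eEF1alpha2 (0.973) and Aps (0.97), and to Rab3 Bhmt (0.971) and Liprin-gamma (0.969). For brp on 146886_at they were Teh2 (0.972) and MED26 (0.966), and for unc-13 Slc45-1 (0.963) and CG4239 (0.962). Both brp on 146886_at (291.5 ± 259, SD, n = 4) and Teh2 (340.7 ± 413, SD, n = 4) spread widely in IP. Whether 1 array carried their r was not tested. milt, whose product links kinesin to mitochondria for transport, had mean signals of 66.68 in IP, 228.2 in Rh1 heads and 157.9 in CS heads, the same order as Syn.

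Other genes of release, excitability and transport, taken from lists of known components with 1 probe set per gene, the brightest, were more often lower than higher in IP. Over 6 lists together, for fusion, vesicle proteins, the active zone, recycling, excitability and axonal transport, 53 tested genes had 29 lower (54.7%), 5 higher (9.43%) and 19 not passing in IP over Rh1 heads, with a median log2 fold of -0.55. Rh1 heads over CS heads had 21 higher (39.6%), 7 lower (13.2%) and 25 not passing, with a median of 0.13. IP over CS heads had 7 higher and 29 lower, with a median of -0.43. Beside these stand the shares over all tested probe sets given above, which came through the same filter. That filter used the mean over all 14 arrays, so a gene low in IP could pass on its head signal. Liprin-alpha (IP mean 87.4), Spn (92.15), Fife (106.9), Sytalpha (85.7), Syt7 (93.41) and NaCP60E (105.5) had IP means below 110. The size of their folds in IP depends on the pseudocount.

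Active zone scaffold and calcium channel subunit genes were lower in IP than in Rh1 heads in 9 of 11 cases, with 1 higher and a median of -0.56. With the filter at the 50th percentile 6 of 8 were lower. CASK, a membrane-associated scaffold kinase, fell by 1.69 (SE 0.10), and its other probe sets had -0.62 and -0.51. Ca-alpha1D, a second calcium channel subunit, fell by 1.55 (SE 0.17), Liprin-alpha fell by 1.06 (SE 0.10) and Rim, which tethers vesicles to channels, fell by 0.56 (SE 0.11). The one gene that rose was dlg1, a scaffold found on both sides of the synapse (2.21, SE 0.37), and its other probe set fell by 0.86. In Rh1 heads over CS heads 5 of the 11 rose, among them Liprin-alpha (0.58) and Ca-alpha1D (0.57), and 2 fell. Among the latter was Rbp (-0.46), which encodes the RIM-binding protein and whose other probe sets had 0.11 and 0.05, neither called. In IP over Rh1 heads Rbp had -0.55 on its brightest probe set but 0.02 and -0.24 on the others, neither called.

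Of 9 fusion and calcium trigger genes 1 was higher, 2 were lower and 6 did not pass in IP over Rh1 heads, a share of lower calls near that over all tested probe sets (25.6%). The list held 17 genes, of which just these 9 had a probe set of 1 gene. Syt1, Snap25, Syx1A, cpx, comt, Nsf2, Cadps and Syt4 had none, so the counts do not cover them. Among the synaptotagmins, Syt7 fell by 2.64 (SE 0.13) with mean signals of 93.41 in IP and 755.8 in Rh1 heads, and Sytalpha fell by 1.15 (SE 0.09), whereas alphaSnap, which helps take spent SNARE complexes apart, rose (1.09, SE 0.19). Tomosyn, an inhibitor of SNARE assembly, had -0.17 (adjusted p = 0.219) on its brightest probe set, but its 3 other probe sets fell (-2.23, -1.56 and -1.27). Csp, a vesicle chaperone, had 0.00 (SE 0.15). Against CS heads, Rh1 heads had 4 of the 9 higher, including Syt7 (0.77) and Sytalpha (0.47), and 1 lower, Tomosyn (-0.30), whose 3 other probe sets rose (0.96, 0.29 and 0.41).

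For vesicle proteins and filling, 4 of 8 genes fell in IP over Rh1 heads and 0 rose in limma, also at an unadjusted p under 0.05, where the positive values were those of Rab27 (0.11) and Rph (0.03). Vmat, the monoamine transporter of vesicles, fell by 1.72 (SE 0.15), and Syngr, for synaptogyrin, by 1.27 (SE 0.17). Rab3-GEF, the exchange factor that activates Rab3, had -0.26 (SE 0.10, adjusted p = 0.0514). Rh1 heads against CS heads had 3 higher, including VGlut (0.41) and Vha100-1 (0.41), and 2 fell. Of the 9 genes of vesicle recycling 4 fell and 2 rose in IP over Rh1 heads, with a median of -0.80. nwk, an endocytic adaptor, fell by 1.49 (SE 0.27) and shi, the dynamin that pinches vesicles off, by 1.11 (SE 0.16), whereas the endocytic genes Eps-15 (1.11, SE 0.24) and AP-2mu (0.80, SE 0.23) rose. Of these 9, 6 rose in Rh1 heads over CS heads, including nwk (0.72, with -0.02 and -0.10 on its other probe sets) and Chc, for the clathrin heavy chain (0.69).

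Apart from para, which was below the filter, 10 genes of sodium and cation excitability were tested. Of these, 7 fell in IP over Rh1 heads, 0 rose in limma, also at an unadjusted p under 0.05, and the median log2 fold was -1.04. On the brightest probe sets na, the cation leak channel, alone had a positive value (0.12, SE 0.08, adjusted p = 0.238). unc79, a partner of that channel, fell by 1.69 (SE 0.25). NaCP60E, a gene of the sodium channel family, fell by 1.16 (SE 0.14) on its brightest probe set and had -0.18 (adjusted p = 0.0906) on another. SLO2, counted among the genes that fell (-1.07, SE 0.12), had 0.22 and 0.43 on other probe sets, neither called. tipE, an auxiliary subunit of the para channel, fell by 0.50 (SE 0.10), and its relatives Teh2 (-1.62, SE 0.53, with overlapping arrays) and Teh3 (-1.01, SE 0.19) fell as well. In Rh1 heads over CS heads 2 rose, Teh2 (0.62) and unc79 (0.33), and 1 fell. Of 6 genes of axonal transport 3 fell in IP over Rh1 heads, including syd, an adaptor of kinesin (-1.09, SE 0.08), and 1 rose, Klc, the kinesin light chain (1.21, SE 0.14), and the count of rises was 2 without IP replicate 1. The 1 called in Rh1 heads over CS heads was Unc-76 (0.24), which rose, and next in size was Dhc64C, for a dynein heavy chain (0.17, SE 0.09, adjusted p = 0.137).

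Of 8 tested pan-neuronal nuclear and surface genes, 5 were lower in IP than in Rh1 heads. By limma 0 were higher, also at an unadjusted p under 0.05, and the median was -1.02. On the brightest probe sets futsch alone was positive (0.10, SE 0.11), with -0.12 and -0.81 on its other probe sets, neither called. nrv3 was counted both here and among the excitability genes. VGlut and Vmat were counted among the vesicle proteins and among the transmitter neuron markers. pros, a nuclear regulator, fell by 1.92 (SE 0.11) and fne, an RNA-binding protein gene of neurons, by 1.55 (SE 0.08). elav, also on this list, was below the filter, with mean signals of 48.08 in IP, 50.25 in Rh1 heads and 72.79 in CS heads. Which genes of the list R1-R6 express was not tested. In Rh1 heads over CS heads this list had 1 higher and 4 lower, with Nrg (-0.65) and futsch (-0.45) lowest, and a median of -0.14. Beside the fall of the members in IP over Rh1 heads, the summed signal of markers of transmitter neurons other than photoreceptors was 2954 to 3676 in IP, 6981 to 7905 in Rh1 heads and 6273 to 7395 in CS heads, with Gad1, the enzyme that makes GABA, at a log2 fold of -3.24 (SE 0.08). Summed glial markers were 7925 to 13413 in IP, 16709 to 18309 in Rh1 heads and 16375 to 17915 in CS heads, a sum that Gs2 made up to a large extent (mean 6412 in IP and 11720 in Rh1 heads). Of 10 tested glial genes 5 were lower and 2 higher in IP over Rh1 heads, the 2 being nrv2 (1.18) and Gli (1.17). Gat had the largest fall (-3.3, SE 0.1). loco, at 0.06 on its brightest probe set, rose on another (0.64, limma adjusted p = 0.00197). Muscle markers summed to 5197 to 7108, 34252 to 38001 and 26598 to 42572, and fat body markers to 12256 to 25166, 90962 to 100744 and 106654 to 121440, in the same order of groups. The part of these other cell types in the members' values was not tested. Between Rh1 heads and CS heads the markers of transmitter neurons had 2 higher, 1 lower and 6 of 9 not passing, with a median of 0.08, while the photoreceptor markers had 7 of 9 lower. ChAT, a transmitter neuron marker with -0.06 on its brightest probe set, rose on another (0.87, limma adjusted p = 6.62e-05).

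**Figure D4:**
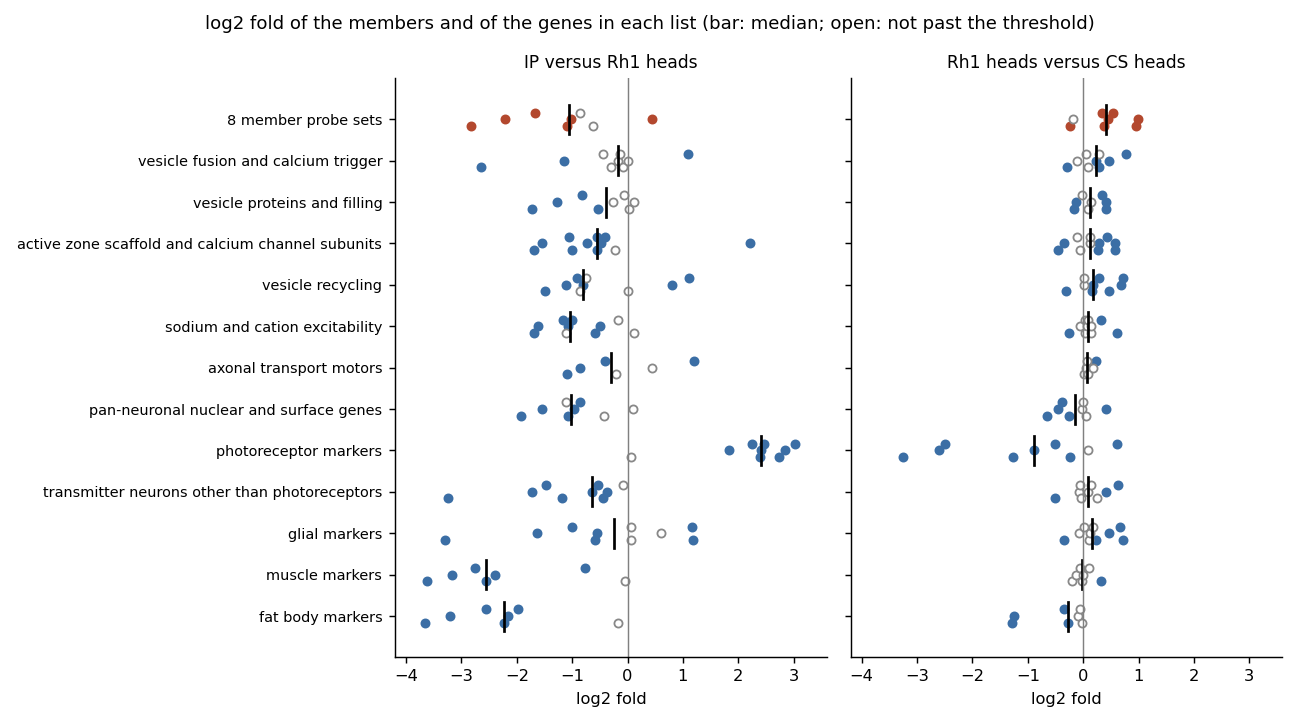
Log2 fold change (horizontal axis) of the 8 member probe sets and of the tested genes of 12 lists, for IP over Rh1 heads and for Rh1 heads over CS heads, with a bar at each median and open points for genes that did not pass in limma. The member median is -1.06 for the IP panel and 0.41 for the head panel, while photoreceptor markers have medians of 2.41 and -0.89.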

How the data were processed

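Arrays of 14 RNA samples were grouped by their labels. The deposited table holds 1 linear intensity per probe set and array, made by the authors with a probe set algorithm and scaling target not given in the sources used here. It has 14010 probe sets, 44 of them controls, values up to 31791 and 4 exact zeros. Medians of the deposited intensities ran from 180.1 to 201.8 and trimmed means (2% off each end) from 310.2 to 373.4, so arrays were scaled to one trimmed mean. Values then became log2(signal + 32). Probe sets whose mean reached the 30th percentile (a signal of 110) were tested, 9776 in all. Each comparison was fitted on its 2 groups alone with limma 3.58.1 in R 4.3.3 (lmFit, eBayes with trend, two-sided), with Benjamini-Hochberg adjustment at 0.05. The fit was tested on simulated data. Python 3.11.15, numpy 2.4.6, pandas 2.3.3 and matplotlib 3.10.9 made tables and figures.

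Genes were named from the platform's annotation for 12442 probe sets with 1 gene. Of these 12393 matched the RefSeq table for assembly Release 6 by gene identifier. The sources name no genome build for the arrays, so coordinates are left out. IP replicate numbers follow accession order and pair no samples. The numbers of Rh1 heads and CS heads come from the labels, and deviations of same-numbered arrays correlated at -0.112 to 0.104, so they did not pair samples. No arrays of a group shared more than 1 identical value. Named were all members, the 2 genes most correlated with each, and, for the lists of neuronal genes, the 2 genes per list and comparison with the largest absolute fold and further genes that were called. Marker lists of other cell types were fixed under the same rule but are given as counts and sums, with eys, ChAT, Gad1, Gs2, nrv2, Gli, Gat and loco named. Rab27, Rph, Rab3-GEF, Csp, Tomosyn, na, futsch, elav, ChAT and loco, where that rule did not give them, were chosen after their values were seen. Syp was left out of the vesicle list, since the fly gene of that symbol encodes an RNA-binding protein. The members and lists were chosen with earlier results of these data known. Alternatives were other pseudocounts, filters and scalings, array weights, eBayes without a trend, the fit of all 14 arrays, arrays left out and a replicate block.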

Additional observations from a re-analysis of the deposited data

Results flagged for a closer look

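Within the groups of 4 and 6 arrays, 33 sets of values of the 11 probe sets were examined for an array far from the others. Of these, 2 stood out. Chance flags about 1 in 20 such sets, so 2 of 33 is near the number that chance gives. For brp on probe set 146886_at, IP replicate 1 had a signal of 680.1, against 144.4 to 177.7 in the other IP arrays, and its gap to the nearest was 0.876 of the range. That array also had the highest eIF-4a 5′ to 3′ ratio of IP, 0.531, and the part of RNA quality in this value was not tested. For brp on probe set 146887_at, Rh1 heads replicate 2 had 129.1, against 151.3 to 155.2 in the other Rh1 head arrays. Its gap was 0.86 of the range on the same log2 scale.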

How the results depend on the processing

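Of the member folds recomputed under the alternatives, 494 kept their direction and side of the threshold, 16 passed only under the alternative, 6 no longer passed and 1 reversed. The reversed one was brp on 146886_at in IP versus CS heads, at 0.12 (adjusted p = 0.758) without IP replicates 2 and 4. Leaving out single arrays, member counts ran from 5 to 7 lower and 0 to 1 discordant probe set pairs (pairs of 1 gene whose changes differed in the exact permutation test) in IP versus Rh1 heads, from 1 to 2 lower in Rh1 heads versus CS heads, and from 5 to 6 lower, 0 to 1 higher and 0 to 1 discordant in IP versus CS heads. The 7 lower came without IP replicate 1, the 2 lower without CS heads replicate 2, where nSyb had -0.22 (adjusted p = 0.029), and the 1 higher and 1 discordant without IP replicate 1. With the filter at the 50th percentile brp on 146887_at was not tested, so 0 were higher in IP versus Rh1 heads and 0 lower in Rh1 heads versus CS heads. The lower count of Rh1 heads versus CS heads was 3 with no filter and 2 with quantile normalization. In IP versus CS heads 1 was higher with values as deposited, median scaling, quantile normalization, cyclic loess and the fit of all arrays. With no filter 3 probe set pairs were discordant in Rh1 heads versus CS heads and 2 in IP versus CS heads, where more pairs were tested. nSyb and brp on 146886_at also passed in IP versus Rh1 heads with the fit of all arrays (adjusted p = 0.0258 and 0.0293) and with array weights (-0.46 and -1.12, adjusted p = 0.00243 and 0.000337). With the replicate block over numbers 1 to 4, Rh1 heads versus CS heads had 6 higher and 1 lower, as without it. Over all probe sets, calls in Rh1 heads versus CS heads were 3013 with the fit of all arrays, against 5293 as reported, and in IP versus Rh1 heads 6969 with array weights, against 4630 as reported. Of the gene list counts, 10 moved by over 1.5 times in IP versus Rh1 heads, 33 in Rh1 heads versus CS heads and 25 in IP versus CS heads, while 470, 519 and 503 did not. In IP versus Rh1 heads axonal transport genes higher were 1 to 2 and lower 2 to 4 over all alternatives, and active zone genes lower 6 to 9. In Rh1 heads versus CS heads, recycling genes higher were 2 to 6, excitability genes higher 0 to 4 and vesicle protein genes lower 0 to 2. The cause of these shifts was not tested where none is given. Signals below the filter, those of para and 1 probe set each of brp and cac, limit what can be said of them.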
